A study of Mus musculus with 48 samples.

Results

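Preadipocytes grown from the inguinal fat pad of adult mice and mouse embryonic fibroblasts (MEFs) are both mesenchymal cells that can be turned into adipocytes in culture, and the series used both as starting material. The comparison described here sets the 3 libraries of WT preadipocytes at day 0 against the 3 libraries of WT MEFs at day 0, which are 6 of the 48 RNA-seq libraries of the series. By their labels, the 6 libraries are of C57BL/6 background, wild type at Hmgn1 and Hmgn2, and not yet given the adipogenic cocktail of insulin, dexamethasone, IBMX, T3 and rosiglitazone. Beside them, 2 further sets are used below. These are the day 0 libraries of double knockout (DKO) cells of both sources, which lack Hmgn1 and Hmgn2, and the WT libraries of later days, taken after the cocktail was given. By the labels and the study's methods, the preadipocytes were freed with collagenase from the subcutaneous inguinal fat of 8- to 12-week-old mice and grown on collagen-coated plates, and the MEFs came from mid-gestation embryos, were used at a low passage and were grown on tissue culture plates. The labels have both sources wait 2 days past confluence before the cocktail, whereas the methods give this wait for MEFs and have preadipocytes treated once confluent, so the culture state at day 0 may differ. The study calls its replicates biological, but the labels do not say how many animals or embryos were pooled or whether the 3 replicates of a source are separate isolations, and the p-values measure the spread between these libraries, which may be technical. Each source has its own deposited count table, and the origin of the cells cannot be told apart from the age and sex of the donors, the plating surface, the time at confluence, the passage or any difference in handling or sequencing. Both cultures are mixtures, and in bulk RNA fewer cells of a type cannot be told apart from less RNA per cell.

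Fibroblasts from different sites of the body keep a record of their position in the Hox genes, which are laid out in 4 clusters and switched on in the embryo in the order in which they lie on the chromosome. Many imprinted genes, which are expressed from the maternal or the paternal copy alone, promote or restrain growth before birth and are turned down in most tissues afterwards. Adipogenesis runs from the early factors C/EBPβ and C/EBPδ to PPARγ and C/EBPα, and confluent fibroblasts can also take up the contractile programme of myofibroblasts, with actin stress fibres, calponin and transgelin.

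The 6 libraries held between 19872420 and 28174944 counts each, and the 10 most abundant genes took 9.98% to 10.1% of the counts in preadipocytes and 8.45% to 8.62% in MEFs. Levels are given as CPM, a gene's counts relative to the TMM-scaled total of its library. On the log2 scale of CPM, here scaled by library size without TMM, the correlation across genes was 0.977 to 0.980 between preadipocyte libraries. It was 0.985 to 0.990 between MEF libraries and 0.834 to 0.848 between the sources. MEF replicates 1 and 3 were the most alike of any pair, with a chi-square of 3.33 per degree of freedom. The other pairs within a source were at 17.9 to 25.9. Counts redrawn from one library gave 1.01, so no library was a copy of another. That does not show that MEF replicates 1 and 3 were separate isolations, which was not tested. MEF replicate 2 stood apart from the other MEFs in several genes described below. The sources also differed in sex. Xist, the RNA that coats the inactive X chromosome, was above 100 CPM in each of the 24 MEF libraries of the series and under 1 CPM in each of the 24 preadipocyte libraries, and the Y-linked helicase gene Ddx3y had the opposite pattern. Of the tested genes, 562 lay on the X chromosome, of which 129 were called higher and 123 lower in preadipocytes. These X counts were near the shares over all tested genes, 18.7% higher and 19.9% lower. On the Y chromosome 6 of the 9 tested were called higher.

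Genes were called at an adjusted p under 0.05 by the quasi-likelihood test of edgeR after Benjamini-Hochberg adjustment and a change of 1.5-fold or more, which are also the study's thresholds. All log2 fold changes are preadipocytes minus MEFs, with their standard error (SE), and adjusted p-values are from this test. Of 15726 genes tested, 6078 were called (38.6%), 2945 higher in preadipocytes (18.7%) and 3133 lower (19.9%), and the median log2 fold change was -0.02. At 4-fold or more, 866 genes were higher (5.51%) and 1153 lower (7.33%). Among the calls, 773 of the 970 processed pseudogenes tested were higher in preadipocytes and 5 were lower, and protein-coding genes alone gave 1959 higher and 2835 lower of 13598. Processed pseudogenes share reads with the genes they were copied from, and together they took 0.538% to 0.608% of the counts in WT preadipocytes and 0.220% to 0.226% in WT MEFs. The genes described below are protein-coding or known long RNAs unless stated otherwise.

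**Figure D1:**
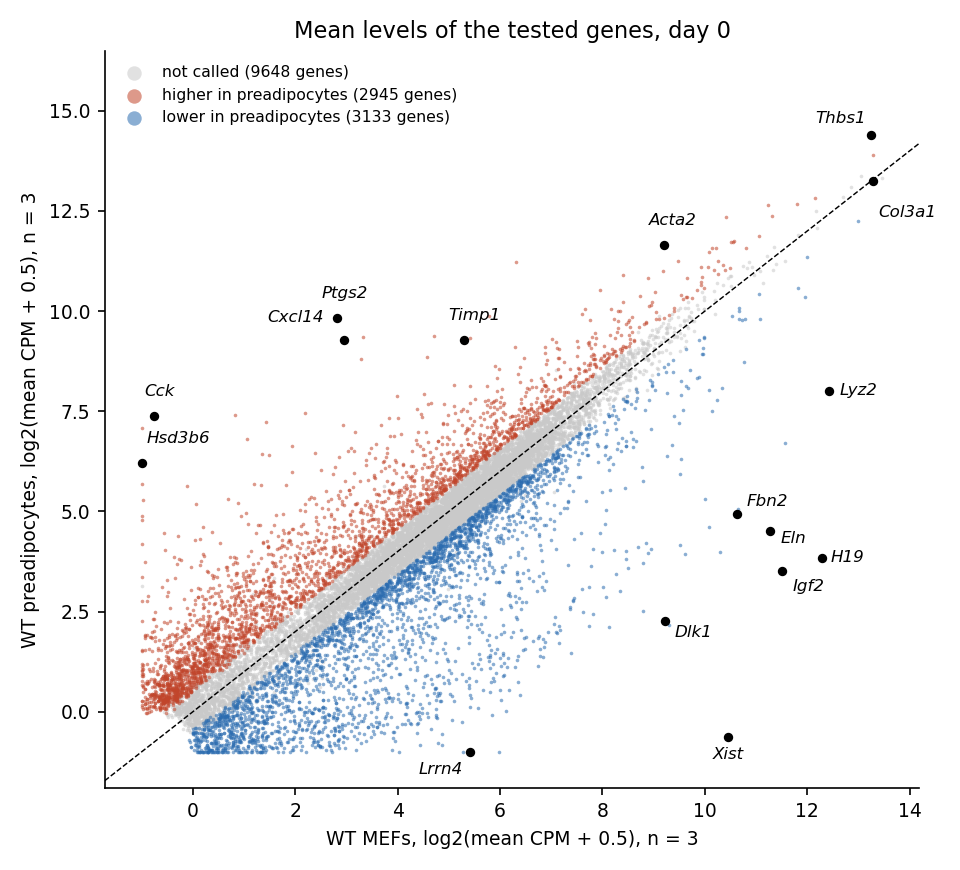
Each point is 1 of the 15726 tested genes, with the mean level of 3 WT MEF libraries on the x axis and of 3 WT preadipocyte libraries on the y axis, both as log2 of CPM plus 0.5; red and blue points are the 2945 and 3133 genes called higher and lower in preadipocytes, and the dashed line marks equal levels. Thbs1 and Col3a1 are high in both, while H19, Igf2, Eln and Lyz2 lie far below the line and Acta2, Ptgs2, Cxcl14 and Timp1 far above it.

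The differences of largest size were between genes that one source expressed and the other hardly did. Hsd3b6, which encodes a steroid dehydrogenase and has close copies among its neighbours that could share its reads, was at 60.1, 122 and 39 CPM in the 3 preadipocyte libraries and had no counts in the MEFs, at least 607-fold higher when the MEFs are set to a floor of 3 counts per library. Apob, encoding the apolipoprotein of very low density lipoproteins, stood at 15.6, 22.1 and 15.7 CPM against none. Cck, the gene of the hormone cholecystokinin, was at 183, 113 and 205 CPM in preadipocytes and 0.206, 0.037 and 0.0404 CPM in MEFs (adjusted p = 1.42e-05). In the other direction, the neuronal adhesion gene Cntnap3 had no counts in preadipocytes and 64.4, 55.5 and 67.5 CPM in MEFs, at least 403-fold. Ptgds, a prostaglandin D synthase, also had none in preadipocytes and 34.1, 45.2 and 35.7 CPM in MEFs. Agtr2, the angiotensin II type 2 receptor, was at 1.64, 0.288 and 9.97 CPM in preadipocytes and 698, 555 and 643 CPM in MEFs (adjusted p = 0.00117). In none of these 6 genes did the libraries of the sources overlap, but non-overlapping libraries were common here, at 69.2% of the tested genes. Among genes abundant in their higher source, Lrrc32, which encodes a docking protein for latent TGF-β, was at 903, 1261 and 642 CPM in preadipocytes and 54.4, 49.8 and 59.5 CPM in MEFs, 17.1-fold (log2 4.10 ± 0.27, adjusted p = 4.03e-05). The axon guidance phosphatase gene Ptprd was among the calls with the smallest p, at 1.86, 2.16 and 2.07 CPM in preadipocytes and 74.7, 66.2 and 72.2 CPM in MEFs (log2 -5.13 ± 0.10, adjusted p = 1.17e-07).

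By gene list, the calls ran from wholly one way to wholly the other. Members of the contractile list were called higher in preadipocytes in 20 of 23 cases and lower in none. Macrophage genes were lower in 18 of 18, and imprinted genes in 20 of 36 with none higher. Against these stood the background of 18.7% of all tested genes called higher and 19.9% lower. It includes the processed pseudogenes, and of protein-coding genes alone 14.4% were higher and 20.8% lower. Lists such as the cell cycle genes (6 higher and 4 lower of 35) and mature adipocyte genes (3 and 3 of 16) were near or under the shares of all tested genes. Their higher shares, 17.1% and 18.8%, lay above that of protein-coding genes. The list counts here and below stand beside this background of all tested genes. They describe the lists and were not tested as sets.

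**Figure D2:**
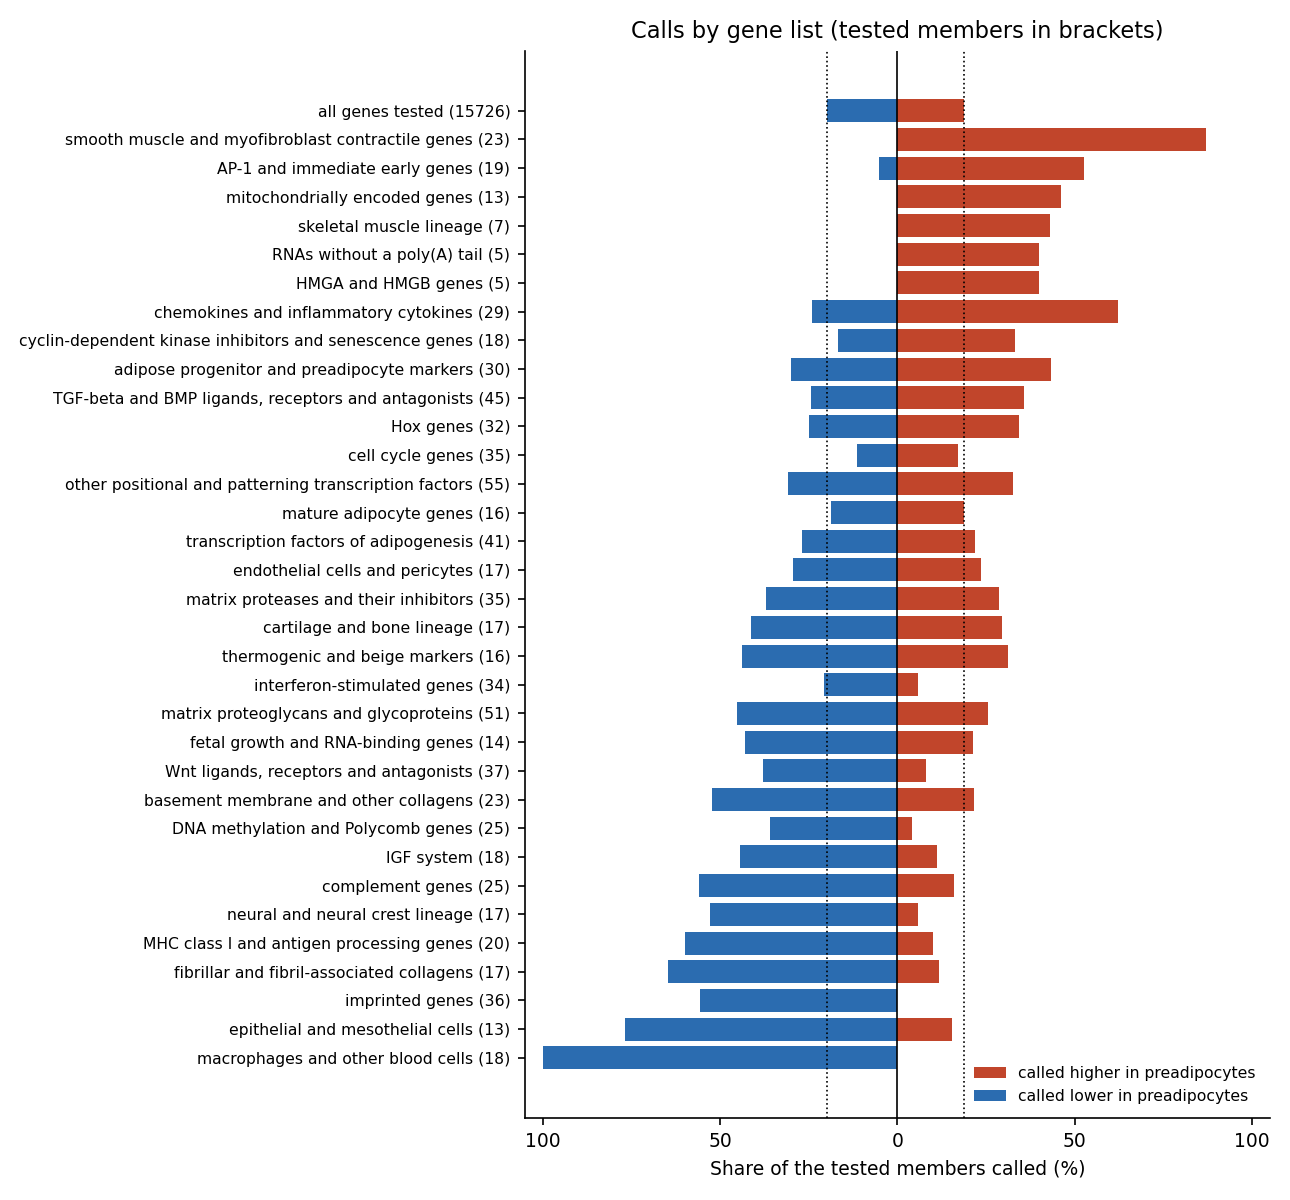
For each gene list, the bars give the share of tested members called higher (red, to the right) and lower (blue, to the left) in WT preadipocytes than in WT MEFs, with the number tested in brackets; the dotted lines mark the shares over all genes tested, 18.7% and 19.9%. The contractile list has 87% called higher and none lower, and the macrophage list 100% called lower.

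The Hox clusters differed between the sources by cluster and by position in it. The 6 tested genes of the Hoxd cluster were all lower in preadipocytes, and the posterior end of the Hoxc cluster, from Hoxc9 to Hoxc13, was higher in the 4 members tested. Over the 4 clusters, 32 of 39 Hox genes were tested, with 11 called higher (34.4%) and 8 lower (25%). Hoxd8 was the most abundant of its cluster, at 5.73, 8.12 and 6.77 CPM in the 3 preadipocyte libraries and 31.8, 34 and 32.1 CPM in the 3 MEF libraries (log2 -2.25 ± 0.13, adjusted p = 5.21e-06). Hoxd4 was at 1.05, 1.1 and 0.878 CPM in preadipocytes and 6.69, 5.89 and 6.39 CPM in MEFs (log2 -2.64 ± 0.18). Hoxd3 (log2 -3.61 ± 0.44) and Hoxd9 (log2 -2.43 ± 0.36) were lower as well, and Hoxd10 lay at 0 to 0.207 CPM in preadipocytes against 2.09, 1.26 and 2.35 CPM. Hoxd11 had no counts in preadipocytes and 1.13, 0.778 and 1.37 CPM in MEFs, at least 7.06-fold lower. Hoxd10 and Hoxd11 passed the filter on low counts through the MEF libraries alone, so they could only come out lower. In all 6 genes of this cluster the libraries of the 2 sources were apart, as they were in 69.2% of all tested genes.

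Hoxc10, a gene of the hindlimb and posterior trunk, was the Hox gene with the most reads that was called higher in preadipocytes apart from Hoxb9. It was at 51.7, 62.3 and 47 CPM in preadipocytes and 14, 12.6 and 13.5 CPM in MEFs, a 4.02-fold difference (log2 2.01 ± 0.11, adjusted p = 5.04e-06). Hoxc11 was at 4.55, 3.99 and 2.07 CPM against 0.412, 0.963 and 0.607 CPM (log2 2.42 ± 0.40), and Hoxc13 at 7.86, 7.49 and 4.24 CPM against 0.72, 0.63 and 0.647 CPM (log2 3.28 ± 0.29). The neighbours on the anterior side did not pass the fold threshold: Hoxc6 stood at 30.3, 30.8 and 29.8 CPM against 27.6, 23 and 26.1 CPM (log2 0.25 ± 0.09), and Hoxc8 at log2 0.31 ± 0.10. In the Hoxb cluster Hoxb9 was at 64.5, 60.8 and 64.7 CPM in preadipocytes and 38.3, 36.2 and 33.5 CPM in MEFs (log2 0.81 ± 0.07, adjusted p = 3.88e-05), and Hoxb2 (log2 1.14 ± 0.22), Hoxb4 (log2 0.73 ± 0.13) and Hoxb7 (log2 0.73 ± 0.12) were higher too. With the DKO libraries of day 0 fitted together with the WT ones, Hoxb4 came to log2 0.48 and was not called. The calls of Hoxa5, Hoxa7, Hoxa10, Hoxa11 and Hoxc9 hung on single libraries. Hoxa10 (log2 1.08 ± 0.28) lost its call without MEF replicate 2 or 3, with an adjusted p of 0.0599 and 0.0529, and Hoxa11 (log2 1.55 ± 0.52) without any 1 MEF library, at 0.0822 to 0.123, and came to log2 0.79 without preadipocyte replicate 3. The lower calls of Hoxa5 (log2 -0.78 ± 0.27) and Hoxa7 (log2 -0.79 ± 0.22) were lost without preadipocyte replicate 2 or MEF replicate 1 or 3, at 0.0581 to 0.123, and that of Hoxa5 also without preadipocyte replicate 1, at 0.0884. Hoxc9 (log2 0.59 ± 0.19) lost its call without preadipocyte replicate 1 or 2 or MEF replicate 1 or 2, at 0.0534 to 0.0847.

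**Figure D3:**
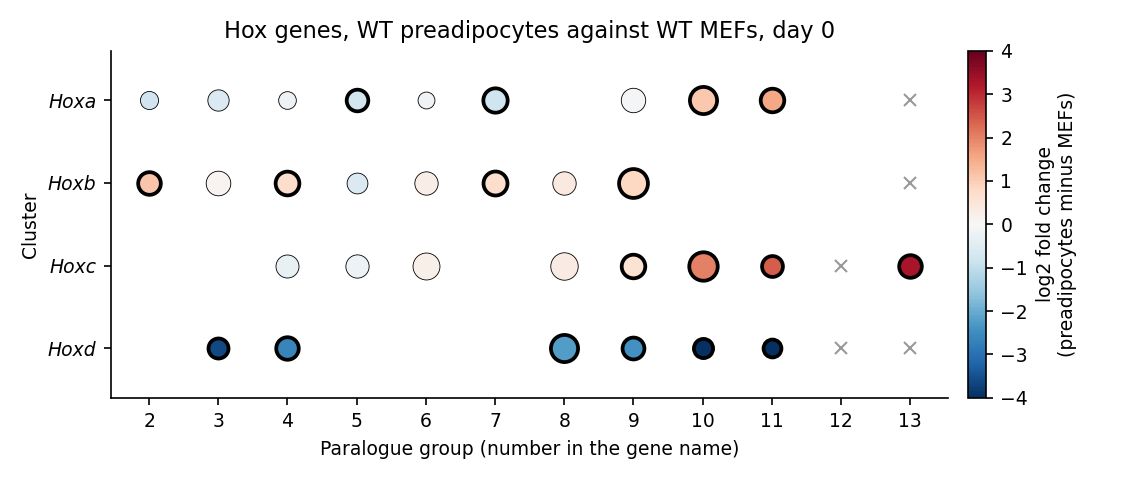
Each circle is a tested Hox gene of paralogue groups 2 to 13, placed by its cluster (rows) and its paralogue group (x axis); the colour gives the log2 fold change, red for higher and blue for lower in preadipocytes, the area grows with the level in the higher source, a thick outline marks a call, and crosses mark genes too low to test. The circles of the Hoxd row are all blue, from -2.25 for Hoxd8 downward. Of these, Hoxd10 and Hoxd11 passed the filter through the MEFs alone. The right end of the Hoxc row is red, up to 3.28 for Hoxc13.

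Other transcription factors that lay out the body axis and the limb also separated the sources, in both directions. Of 55 tested, 18 were higher in preadipocytes (32.7%) and 17 lower (30.9%), beside 18.7% and 19.9% of all genes. Foxf2, a forkhead factor of mesenchyme next to endoderm and in the face, was at 13.4, 13.6 and 20.9 CPM in preadipocytes and 0.103, 0.222 and 0.243 CPM in MEFs (log2 6.38 ± 0.32, adjusted p = 2.98e-06). Lhx9, a LIM-homeodomain factor of limb and gonad, was at 19, 18.6 and 36.3 CPM against 2.3, 1.74 and 1.66 CPM (log2 3.68 ± 0.33), and the homeobox gene Msx2 at 1.82, 2.59 and 1.45 CPM against 0.137, 0.111 and 0.323 CPM. On the lower side were the zinc finger genes of the Zic family, which act in the neural tube and somites. Zic1 was at 0.364, 0.048 and 0.465 CPM in preadipocytes and at a mean of 12.6 ± 2.58 CPM (SD, n = 3) in MEFs (log2 -5.41 ± 0.41, adjusted p = 2.93e-05). Zic2 had no counts in preadipocytes, against 1.92, 1.15 and 1.58 CPM in MEFs. Foxd1, a factor of kidney stroma, had 1 of its 3 preadipocyte libraries above 0, at 0.0455 CPM, and stood at 4.12, 2.15 and 3.76 CPM in MEFs. Of the factors with the most reads, Prrx1, which marks limb and body wall mesenchyme, did not pass the fold threshold (log2 0.40 ± 0.15), and Tbx15, a gene of dorsal and inguinal fat, was at 82.7, 97.3 and 75.4 CPM in preadipocytes and 158, 160.1 and 159.5 CPM in MEFs (log2 -0.90 ± 0.09, adjusted p = 8.73e-05).

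Imprinted genes of fetal growth were low in preadipocytes. Of 36 tested, 20 were called lower (55.6%, against the 19.9% of all genes) and none higher, the median log2 fold change being -0.86. Without preadipocyte replicate 2 or 3, 1 was higher, and 3 were with limma-voom or with all 48 libraries. H19, a long RNA made from the maternal copy on distal chromosome 7, was at 13.5, 10.7 and 17.6 CPM in preadipocytes and 5373, 4149.96 and 5582 CPM in MEFs, 362-fold lower (log2 -8.50 ± 0.25, adjusted p = 7.97e-07). Its neighbour Igf2, the paternally expressed fetal growth factor, was at 1.68, 15.2 and 15.9 CPM against 3107, 2536 and 3096 CPM (log2 -8.07 ± 0.84, adjusted p = 0.000506). The preadipocyte libraries of Igf2 spread widely, with replicate 1 far under the others, yet all lay more than 100-fold under the MEFs. Dlk1, a paternally expressed transmembrane protein that holds back adipogenesis and is often used as a preadipocyte marker, was at 2.23, 2.64 and 8.01 CPM in preadipocytes and 575, 617 and 590.01 CPM in MEFs (adjusted p = 0.000105). Meg3, the maternal RNA of the same domain, was at 418, 468 and 397 CPM against 1696, 1761 and 1746 CPM (log2 -2.02 ± 0.09). Mest (log2 -4.86 ± 0.09, adjusted p = 1.17e-07), an α/β-hydrolase linked to fat cell size, and the zinc finger gene Plagl1 (log2 -5.72 ± 0.30) followed the same direction. Cdkn1c, the maternally expressed cell cycle inhibitor p57, was at 2.77, 1.63 and 10.2 CPM against 278, 116 and 282 CPM, with MEF replicate 2 the lowest of the MEFs. No library of preadipocytes reached the MEF range in any of these 7 genes, and the libraries did not overlap in 69.2% of all tested genes.

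The IGF system was lower in preadipocytes beyond Igf2. Of 18 genes tested, 8 were lower (44.4%) and 2 higher (11.1%), beside 19.9% and 18.7% of all genes. Igf1, the growth factor that takes over after birth, was at 62.1, 78.3 and 107 CPM in preadipocytes and 598, 651 and 584 CPM in MEFs (log2 -2.89 ± 0.20, adjusted p = 3.66e-05). Igfbp3, the main carrier protein of IGF in blood, was at 139, 80.9 and 90.8 CPM against 2905, 3237 and 2917 CPM, 29.2-fold lower (log2 -4.87 ± 0.23). The protease Pappa2, which cleaves IGF-binding proteins, was lower as well (log2 -3.50 ± 0.28). The 2 genes higher in preadipocytes were Igfbp7 (log2 2.29 ± 0.19) and Stc1, encoding stanniocalcin, an inhibitor of the related protease PAPP-A, which stood at 48.3, 46.3 and 55.3 CPM against 1.78, 2.52 and 1.7 CPM (log2 4.64 ± 0.16, adjusted p = 7.46e-07). Of 14 further genes of fetal growth and RNA binding, 6 were lower and 3 higher, among them Igf2bp1 (log2 -1.19 ± 0.22) and Plag1 (log2 -1.11 ± 0.11) on the lower side and the chromatin protein genes Hmga1 (log2 1.28 ± 0.06) and Hmga2 (log2 0.85 ± 0.11) on the higher one. The HMGB genes were not called. The Hmga2 difference shrank to log2 0.24, and was not called, when the DKO libraries of day 0 were fitted together with the WT ones.

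**Figure D4:**
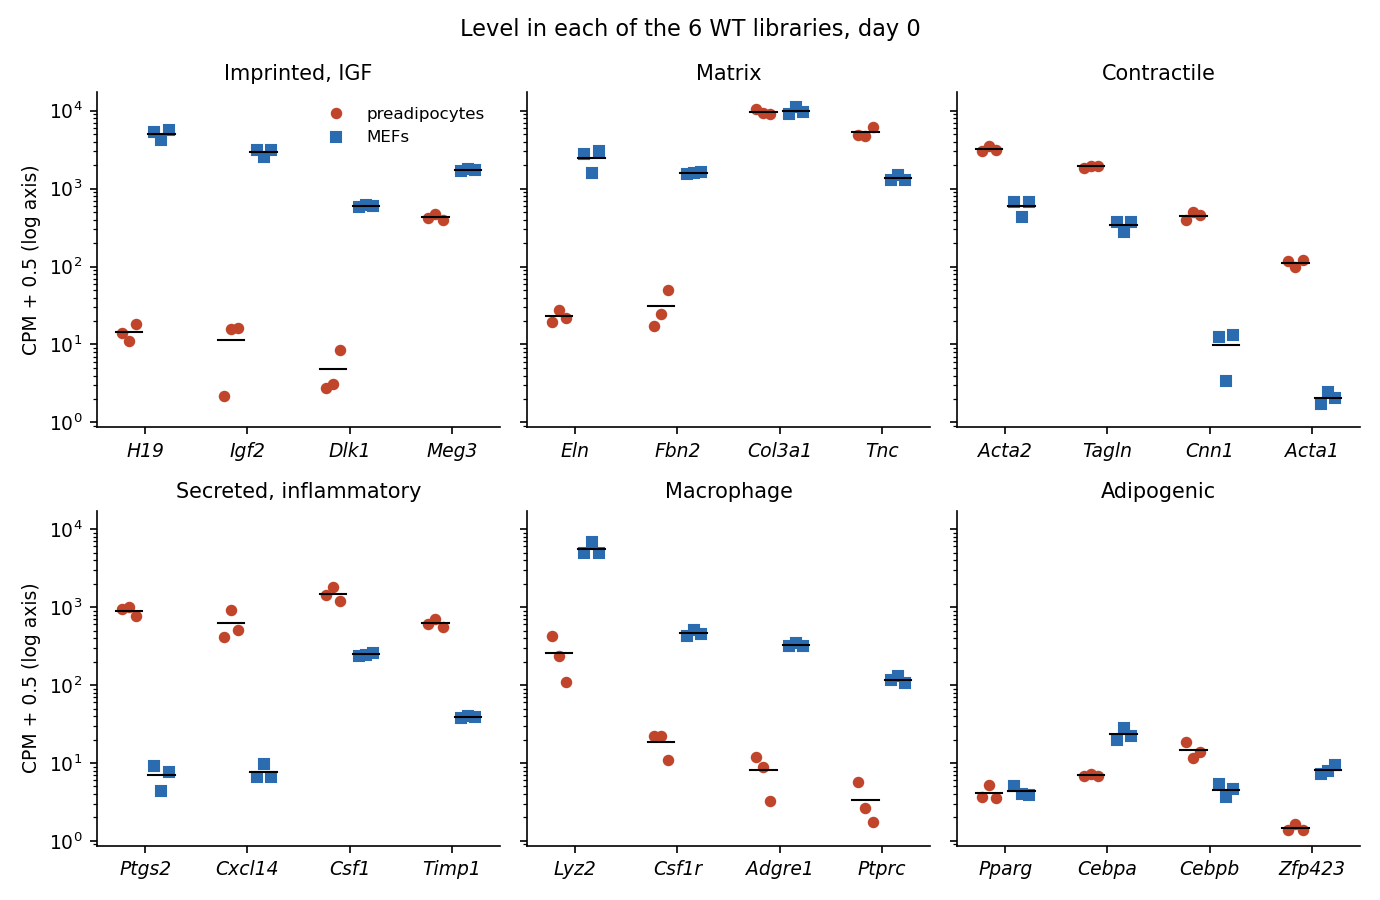
Each point is 1 library (red circles, WT preadipocytes; blue squares, WT MEFs; 3 per source) and each black line the mean of 3, on a log axis of CPM plus 0.5, for 24 genes in 6 groups. H19, Igf2, Eln, Lyz2 and Cnn1 show gaps of more than 10-fold between the sources, the Col3a1 and Pparg points overlap, and MEF replicate 2, the middle blue square, is the lowest MEF in Eln, Acta2, Cnn1 and Ptgs2.

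The MEF libraries carried far more RNA of macrophage genes. All 18 tested genes of the 32 on the macrophage and blood list were lower in preadipocytes, with a median log2 fold change of -4.82, and the 14 not tested included the haemoglobin, T cell and B cell genes. Summed over the list, the level was 620, 398 and 177 CPM in preadipocyte replicates 1, 2 and 3 and 8986, 11060 and 9133 CPM in the MEFs. Lyz2, the lysozyme of macrophages and neutrophils, was at 426, 237 and 108 CPM in preadipocytes and 4918, 6759 and 4903 CPM in MEFs (log2 -4.43 ± 0.56, adjusted p = 0.00111). Adgre1, which encodes the macrophage antigen F4/80, was at 11.5, 8.5 and 2.74 CPM against 316, 345 and 318 CPM (log2 -5.41 ± 0.47), and the mannose receptor gene Mrc1 at 23.8, 19.2 and 9.14 CPM against 792, 636 and 777 CPM (log2 -5.40 ± 0.38). Ptprc, the common leukocyte antigen CD45, was above 0 in all 6 libraries, at 5.18, 2.11 and 1.24 CPM and 115, 129 and 106 CPM. Preadipocyte replicate 3 was the lowest in each of these 4 genes. Csf1r, the receptor for macrophage colony-stimulating factor, behaved alike at 21.8, 21.9 and 10.5 CPM against 423, 509.8 and 452 CPM and was chosen after its values were seen.

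Complement genes, several of which macrophages express, were also lower in preadipocytes more often than higher. Of 25 complement genes tested, 14 were lower in preadipocytes (56%) and 4 higher (16%), beside 19.9% and 18.7% of all genes. C1qa was at 14.3, 15.1 and 4.96 CPM in preadipocytes and 343, 368 and 378 CPM in MEFs (log2 -4.98 ± 0.41), and C1qb (log2 -4.96 ± 0.50) and the C3a receptor gene C3ar1 (log2 -5.30 ± 0.30, adjusted p = 3.43e-05) were similar in size. Apoe, encoding a lipid carrier secreted by macrophages and other cells, was at 41.7, 30.8 and 26 CPM against 1513, 1754 and 1542 CPM (log2 -5.61 ± 0.20, adjusted p = 1.13e-06). The part of the macrophage markers in these differences, and in others given below, was not tested.

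Genes of mesothelium, the sheet that lines the body cavities, were also low in preadipocytes. Of 13 epithelial and mesothelial genes tested, 10 were lower and 2 higher, and the list summed to 67.1, 85.4 and 52.0 CPM in the preadipocyte libraries and 397, 276 and 422 CPM in the MEFs. Lrrn4 had no counts in preadipocytes and 44.8, 36 and 45.8 CPM in MEFs, at least 272-fold lower. Msln, encoding mesothelin, was at 12.3, 10.4 and 1.76 CPM against 134, 62.8 and 139.9 CPM (log2 -3.77 ± 0.67, adjusted p = 0.00436), and Upk3b at 0.955, 0.721 and 0.0517 CPM against 48.1, 41.2 and 52 CPM (log2 -6.30 ± 0.42). MEF replicate 2 held less than the other MEFs of each of these 3 genes. The higher members were Cldn3 and the keratin gene Krt18, at 13, 7.45 and 10.1 CPM against 1.3, 0.555 and 1.5 CPM.

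Genes of neural cells that differed were mostly lower in preadipocytes. Of 17 tested, 9 were lower and 1 higher, or 2 higher without any 1 preadipocyte library. Gfap, a filament gene of glia, was at 0.136, 0.336 and 0.362 CPM in preadipocytes and 11.7, 9.7 and 11.5 CPM in MEFs (log2 -5.30 ± 0.27, adjusted p = 3.03e-06), and Map2, a microtubule protein of dendrites, at 2.59, 2.11 and 2.07 CPM against 31, 19.4 and 30.1 CPM (log2 -3.56 ± 0.22). The 1 member that was higher was Tubb3 (log2 2.59 ± 0.27), a tubulin that fibroblasts can also make. Of 17 endothelial and pericyte genes, 4 were higher and 5 lower, with Kcnj8, a potassium channel of pericytes, at 1.73, 0.432 and 1.6 CPM against 18.2, 34.3 and 21.8 CPM (log2 -4.30 ± 0.46). Of 17 genes of cartilage and bone, 5 were higher and 7 lower, and the 5 came to 3 without preadipocyte replicate 2 or MEF replicate 1 or 2 and to 2 without MEF replicate 3. Alpl, an alkaline phosphatase of osteoblasts, was at 4.23, 16.4 and 13.5 CPM in preadipocytes and 1.1, 0.593 and 1.05 CPM in MEFs (log2 3.63 ± 0.58, adjusted p = 0.00197). Of the 27 skeletal muscle genes, 7 passed the filter on low counts, and the regulators Myod1, Myog and Pax7 did not. Pax3, a factor of the dermomyotome, was at 9.96, 13.8 and 5.58 CPM in preadipocytes and 1.17, 0.704 and 0.809 CPM in MEFs (log2 3.44 ± 0.38).

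The contractile programme was higher in preadipocytes. Of 23 genes of smooth muscle and myofibroblasts, 20 were called higher (87%, against 18.7% of all genes) and none lower, with a median log2 fold change of 1.66, and the 3 not called were Des, Itga8 and Smtn. The summed level of the list was 18873 to 21014 CPM in preadipocytes and 5629 to 6993 CPM in MEFs. Acta2, the smooth muscle actin, was at 3079, 3519 and 3087 CPM in preadipocytes and 664, 427 and 682 CPM in MEFs, 5.46-fold higher (log2 2.45 ± 0.19, adjusted p = 2.98e-05). Tagln, encoding transgelin, was at 1814, 1978 and 1972 CPM against 369, 276 and 373 CPM (log2 2.50 ± 0.13, adjusted p = 3.25e-06). Both genes were at their lowest in MEF replicate 2, and the sources did not overlap. Cnn1, encoding the calponin of smooth muscle, differed most of the list, at 395, 497 and 454 CPM against 12, 2.93 and 12.7 CPM (log2 5.61 ± 0.55, adjusted p = 0.000395). Myl9, the regulatory light chain of smooth muscle myosin, was at 433, 525 and 538 CPM against 121, 103 and 129 CPM (log2 2.09 ± 0.12), and Flna, encoding filamin, at 3111, 3475 and 3597 CPM against 1471, 1462 and 1573 CPM (log2 1.18 ± 0.09). Ccn2, the connective tissue growth factor, was at 1220.4, 1256 and 719.7 CPM against 239.97, 132 and 233 CPM (log2 2.40 ± 0.33). Acta1, the actin of skeletal muscle, which is on the skeletal muscle list and which cultured fibroblasts also make, was at 118, 97.3 and 119 CPM against 1.23, 1.96 and 1.54 CPM, 70.6-fold higher (log2 6.14 ± 0.16, adjusted p = 5.54e-07). Des, the muscle filament desmin, spread so widely that nothing can be read from it, at 9.09, 11.6 and 39.1 CPM and 29.8, 5.59 and 31.8 CPM.

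Serum response factor, with its actin-regulated partners, binds a 10-base element, the CArG box, in the promoters of many contractile genes. The promoters of Acta1 and Myl9, both higher in preadipocytes, are shown as examples that hold one. They are RefSeq sequences of build GRCm38.p6, from 250 bases before to 50 after the start of the gene, 5′ to 3′ on the strand of the gene, with the CArG box in capitals; Acta1 lies at chr8:123894726-123895025 on the minus strand and Myl9 at chr2:156775214-156775513 on the plus strand.
Acta1: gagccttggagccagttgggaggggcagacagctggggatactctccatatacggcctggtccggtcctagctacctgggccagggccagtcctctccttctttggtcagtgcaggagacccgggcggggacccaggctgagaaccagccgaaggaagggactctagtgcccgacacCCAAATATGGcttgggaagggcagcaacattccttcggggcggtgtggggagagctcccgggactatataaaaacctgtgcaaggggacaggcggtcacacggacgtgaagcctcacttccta
Myl9: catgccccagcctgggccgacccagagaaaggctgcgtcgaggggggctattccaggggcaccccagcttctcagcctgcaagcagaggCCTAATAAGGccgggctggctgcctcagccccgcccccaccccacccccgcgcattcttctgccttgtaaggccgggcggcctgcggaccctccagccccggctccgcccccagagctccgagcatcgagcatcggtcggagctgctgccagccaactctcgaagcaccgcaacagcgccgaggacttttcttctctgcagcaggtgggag
The element begins 73 bases before the start in Acta1 and 161 bases before it in Myl9. Searched on both strands, it was present in 3 of the 19 windows that matched 18 of the contractile genes, those of Myl9, Cnn2 and Vcl, and in 1.63% of the 32851 windows of all genes. Of the windows of genes called higher in preadipocytes, 2.52% held it, against 1.16% of those called lower and 1.05% of those not called. Boxes further from the start, in an intron or with a changed base are not counted, and a match says nothing of binding.

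RNA of extracellular matrix genes differed between the 2 sources in both directions. Col3a1 and Col1a2, fibrillar collagen genes with many reads, were not called. Col3a1 was at 10403, 9448 and 9123 CPM in preadipocytes and 9183, 11065 and 9741 CPM in MEFs, with overlapping libraries (log2 -0.05 ± 0.11, adjusted p = 0.713), and Col1a2 likewise did not pass the test (log2 -0.14 ± 0.10), though limma-voom called it lower (log2 -0.65, adjusted p = 0.00012). Among the 17 fibrillar and fibril-associated collagens tested, 11 were lower and 2 higher. Col14a1, which binds fibrils in embryonic and loose connective tissue, was at 37.2, 61.8 and 43.7 CPM against 273, 491 and 270.1 CPM (log2 -2.86 ± 0.33), and Col5a2 was higher, at 5813, 5543 and 4653 CPM against 2433, 2627 and 2586 CPM (log2 1.07 ± 0.11). Of 23 basement membrane and other collagens, 12 were lower and 5 higher. Col4a1 and its partner Col4a2, the main network collagens of basement membranes, were both higher, Col4a1 at 3408, 3802 and 2965 CPM against 1574, 1058 and 1726 CPM (log2 1.22 ± 0.19, adjusted p = 0.00107).

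Eln and Fbn2, which encode proteins of elastic fibres, were both lower in preadipocytes. Eln, encoding elastin, was at 18.8, 27.4 and 21.2 CPM in preadipocytes and 2813, 1586 and 3011 CPM in MEFs, 110.04-fold lower (log2 -6.78 ± 0.34, adjusted p = 1.27e-05). Fbn2, the fibrillin of the embryo, was at 16.6, 24.3 and 50.1 CPM against 1517, 1595 and 1610.4 CPM (log2 -5.70 ± 0.47, adjusted p = 0.00019). MEF replicate 2 was the lowest MEF in Eln and not in Fbn2, and neither gene overlapped between the sources. Ogn, a small leucine-rich proteoglycan also called osteoglycin, was at 42.8, 30.6 and 44.6 CPM against 1142, 863 and 1065 CPM (log2 -4.70 ± 0.19), and Smoc2, a calcium-binding matrix protein, at 12.5, 6.49 and 29.3 CPM against 549, 369 and 567 CPM. Of 51 proteoglycans and glycoproteins, 23 were lower (45.1%) and 13 higher (25.5%), beside 19.9% and 18.7% of all genes. The higher ones included Thbs1 and Tnc, whose proteins are known from healing wounds. Thbs1, encoding thrombospondin 1, was at 19759, 22202 and 22812 CPM against 10192, 8476 and 10669 CPM (log2 1.14 ± 0.12, adjusted p = 0.00012). Tnc, encoding tenascin C, was at 4917, 4728 and 6111 CPM against 1276, 1495 and 1305 CPM (log2 1.95 ± 0.13, adjusted p = 9.37e-06), and Spon2 was higher by log2 2.92 ± 0.25.

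Matrix proteases and their inhibitors were called in both directions, 10 higher (28.6%) and 13 lower (37.1%) of 35 tested, beside 18.7% and 19.9% of all genes. Timp1, an inhibitor of metalloproteinases, was at 611, 699 and 559.9 CPM in preadipocytes and 37.6, 40.03 and 38.8 CPM in MEFs, 16.1-fold higher (log2 4.01 ± 0.10, adjusted p = 4.19e-07). Mmp3, a stromelysin, was at 481, 361 and 474 CPM against 128, 119 and 114 CPM (log2 1.87 ± 0.12), and its close relative Mmp10 at 13, 4.18 and 11.9 CPM against 0.446, 0.259 and 0.162 CPM (log2 5.01 ± 0.58, adjusted p = 0.000372). Among the lower genes, the aggrecanase relative Adamts17 was at 0.364, 0.0961 and 0.207 CPM against 5.93, 11.9 and 6.31 CPM (log2 -5.13 ± 0.47), and Adamts10, which associates with fibrillin, was lower by log2 -2.20 ± 0.08. In each of these genes the libraries of the sources were apart, beside 69.2% of all tested genes.

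Secreted inflammatory factors were for the most part higher in preadipocytes, and several of those lower are factors that macrophages make. Of 29 chemokines and cytokines tested, 18 were higher (62.1%) and 7 lower (24.1%), with a median log2 fold change of 2.46, beside 18.7% and 19.9% of all genes. Ptgs2, the inducible cyclooxygenase, was at 932, 997 and 777 CPM in preadipocytes and 8.64, 3.81 and 7.24 CPM in MEFs, 137-fold higher (log2 7.10 ± 0.33, adjusted p = 1.11e-05). Il6, the interleukin 6 gene, was at 25.2, 25.7 and 13.5 CPM against 0.137, 0.111 and 0.283 CPM (log2 6.91 ± 0.42, adjusted p = 1.39e-05), and the eotaxin gene Ccl11 at 61.4, 45.1 and 41.5 CPM against 0.309, 0.481 and 0.485 CPM (log2 6.86 ± 0.24). Csf1, the ligand of Csf1r, was at 1422, 1792 and 1203 CPM in preadipocytes and 238, 245 and 258 CPM in MEFs (log2 2.57 ± 0.15, adjusted p = 5.63e-06), so that ligand and receptor differed in opposite directions. Cxcl12, which keeps stem cells in their niche, was higher by log2 1.06 ± 0.17. The chemokine gene Cxcl14, picked after its values were seen, was at 411, 928 and 512 CPM against 6.21, 9.26 and 6.19 CPM. The lower genes included Ccl3, Ccl4, Ccl9 and Tnf. Ccl3 was at 0.864, 0.624 and 0.413 CPM in preadipocytes and 12, 12.1 and 11.1 CPM in MEFs (log2 -4.19 ± 0.22), and Tnf at 0.227, 0.192 and 0.0517 CPM against 4.66, 7.11 and 5.54 CPM (log2 -5.12 ± 0.38), beside macrophage lists summing to 177 to 620 CPM and 8986 to 11060 CPM.

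Genes of the AP-1 factors and other immediate early genes stood higher in preadipocytes in 10 of 19 cases and lower in 1, Atf3 (log2 -2.51 ± 0.33). Fosl1, encoding the AP-1 subunit Fra-1, was at 16.4, 21.9 and 15.6 CPM in preadipocytes and 0.858, 0.704 and 1.29 CPM in MEFs (log2 4.24 ± 0.24, adjusted p = 5.1e-06). The orphan nuclear receptor gene Nr4a1 was at 72, 87.8 and 74.2 CPM against 9.09, 10.7 and 10.1 CPM (log2 2.97 ± 0.11), and Maff and Junb were higher by log2 2.36 ± 0.24 and 2.06 ± 0.15. Fosl2, which had many reads in both, stayed under the fold threshold (log2 0.34 ± 0.05).

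AP-1 binds TGACTCA or its reverse complement TGAGTCA, and the κB site bound by NF-κB is a 10-base element. The promoters of Mmp3 and Mmp10, which hold an AP-1 site, and of Il6, which holds both, are shown because these 3 genes carried large differences and are known targets of those factors. They are from the same RefSeq set and window, with the sites in capitals, and lie on the plus strand at chr9:7445572-7445871, chr9:7502092-7502391 and chr5:30012864-30013163.
Mmp3: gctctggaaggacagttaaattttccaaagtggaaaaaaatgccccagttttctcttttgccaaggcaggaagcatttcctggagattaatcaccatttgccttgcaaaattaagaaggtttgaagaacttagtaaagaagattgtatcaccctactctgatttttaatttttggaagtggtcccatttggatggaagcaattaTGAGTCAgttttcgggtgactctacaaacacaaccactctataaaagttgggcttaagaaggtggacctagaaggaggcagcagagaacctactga
Mmp10: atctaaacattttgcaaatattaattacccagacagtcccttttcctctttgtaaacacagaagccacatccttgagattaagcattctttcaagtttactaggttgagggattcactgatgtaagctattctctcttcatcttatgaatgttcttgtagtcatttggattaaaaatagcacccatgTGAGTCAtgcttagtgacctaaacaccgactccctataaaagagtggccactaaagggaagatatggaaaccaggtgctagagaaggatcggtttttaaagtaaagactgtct
Il6: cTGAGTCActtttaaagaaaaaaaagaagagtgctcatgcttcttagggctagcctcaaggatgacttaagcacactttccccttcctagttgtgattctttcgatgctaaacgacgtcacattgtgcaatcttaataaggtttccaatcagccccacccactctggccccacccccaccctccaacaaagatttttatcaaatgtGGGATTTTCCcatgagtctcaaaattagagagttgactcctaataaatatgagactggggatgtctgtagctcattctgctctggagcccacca
The AP-1 site begins 46 bases before the start in Mmp3 and 63 bases before it in Mmp10. In Il6 the AP-1 site begins 249 bases before the start and the κB site 44 bases before it. An AP-1 site was in 5 of the 28 windows of the protease list, those of Mmp1a, Mmp3, Mmp10, Mmp12 and Mmp13, all from 1 metalloproteinase cluster, of which Mmp3 and Mmp10 were called higher in preadipocytes. It was in 7 of the 34 windows of the chemokine list, and in 5.2% of all windows. The κB site was in 8 of those 34 and in 8.46% of all windows. Over all genes the AP-1 site was in 5.85% of the windows of genes called higher, 4.16% of those called lower and 3.35% of those not called, and the κB site in 11.1%, 11.3% and 10%. The letters describe the windows and do not show binding.

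Markers of adipose progenitors did not point one way. Of 30 tested, 13 were higher in preadipocytes and 9 lower, and Pdgfra, the receptor most used to define such cells, was at 372, 461 and 677 CPM in preadipocytes and 515, 618 and 529 CPM in MEFs, with overlapping libraries (log2 -0.14 ± 0.22, adjusted p = 0.611). F3, the coagulation factor receptor that marks an adipogenesis-regulating subset, was at 1028, 994 and 875 CPM in preadipocytes and 202, 175 and 201 CPM in MEFs (log2 2.33 ± 0.10, adjusted p = 1.28e-06). Thy1 was at 996, 1027 and 1033 CPM against 292, 352 and 298 CPM (log2 1.70 ± 0.09), and Cd24a, a surface protein of early progenitors, at 132, 128 and 169 CPM against 10.5, 2.18 and 8.57 CPM (log2 4.33 ± 0.52, adjusted p = 0.000909). Gdf10, a TGF-β family ligand of the F3-positive cells, was at 109, 97.4 and 275 CPM against 14.3, 12.9 and 14.2 CPM, with a log2 fold change of 3.54 that came to 2.93 without preadipocyte replicate 3. On the lower side, Cd34, a sialomucin of progenitors, was at 10.2, 44.1 and 42.5 CPM against 282, 243 and 276 CPM (log2 -3.05 ± 0.54, adjusted p = 0.00423), and Clec11a was lower by log2 -2.57 ± 0.22. The cells labelled white preadipocytes therefore expressed Pdgfra, Thy1, F3 and Ebf2, but so did the MEFs, and Dlk1 and Cd34 were higher in the MEFs.

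The factors that drive adipogenesis were split. Of 41 tested, 9 were higher (22%) and 11 lower (26.8%), beside 18.7% and 19.9% of all genes and 14.4% and 20.8% of protein-coding genes. The early factors Cebpb and Cebpd, chosen with Pparg and Cebpa after their values were seen, were at 18.2, 11 and 13.2 CPM and 31.8, 21.2 and 30.3 CPM in preadipocytes and 4.87, 3.11 and 4.21 CPM and 12.4, 7.59 and 12.4 CPM in MEFs (log2 1.79 ± 0.24 and 1.36 ± 0.23). Pparg overlapped between the sources, at 3.18, 4.66 and 3.05 CPM and 4.63, 3.52 and 3.4 CPM (log2 -0.09 ± 0.23, adjusted p = 0.764), and Cebpa was lower in preadipocytes, at 6.32, 6.82 and 6.3 CPM against 19.4, 27.8 and 21.8 CPM (log2 -1.83 ± 0.15, adjusted p = 2.87e-05). Zfp423, a factor that commits cells to the white adipocyte fate, was at 0.864, 1.15 and 0.878 CPM in preadipocytes and 6.83, 7.48 and 8.86 CPM in MEFs (log2 -2.99 ± 0.21, adjusted p = 1.22e-05), while Ebf2, which marks cells that can become brown or beige, was at 26.3, 16.2 and 8.42 CPM against 3.7, 2.96 and 4.16 CPM (log2 2.24 ± 0.42). Gata2, which restrains adipogenesis, was higher in preadipocytes, at 23.6, 37.3 and 28.5 CPM against 2.95, 1.3 and 3.52 CPM (log2 3.53 ± 0.35, adjusted p = 0.000245), and Gata3 was higher by log2 2.38 ± 0.51. Klf5, which acts on Pparg early in differentiation, was lower, at 1.18, 2.31 and 3.2 CPM against 24.9, 10.5 and 24 CPM (log2 -3.16 ± 0.48).

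The genes most particular to finished fat cells were near 0 in both sources. Adipoq, the adiponectin gene, lay at or under 0.306 CPM in the 6 libraries, Ucp1, the uncoupling protein of thermogenic fat, at or under 0.153 CPM, and 9 of the 25 mature adipocyte genes were too low to test. Of the 16 tested, Scd1, a fatty acid desaturase, was at 391, 397 and 571 CPM in preadipocytes and 92.1, 82.1 and 90.9 CPM in MEFs (log2 2.36 ± 0.16, adjusted p = 2.18e-05), and Plin4 and Dgat2 were also higher, by log2 2.52 ± 0.31 and 1.97 ± 0.18. Cd36, a fatty acid transporter that macrophages express too, was lower, at 5.14, 1.54 and 1.39 CPM against 49.3, 68 and 46.5 CPM, together with Pck1, which was too low to test without MEF replicate 1 or 3 and lost its call with all 48 libraries (adjusted p = 0.0763), and Lpl, which lost its call without preadipocyte replicate 3 or MEF replicate 2 (adjusted p = 0.0565 and 0.0516). Of 16 genes of thermogenic and beige fat, 5 were higher and 7 lower. Epsti1 was at 0.0455, 0.24 and 0.258 CPM against 10.1, 9.18 and 9.83 CPM (log2 -5.73 ± 0.33), and Ppargc1a, the coactivator of mitochondrial biogenesis, at 0.0909, 0.192 and 0.155 CPM against 1.23, 1.19 and 1.29 CPM (log2 -3.05 ± 0.36), while Tbx1, a marker of beige cells, was higher at 2.23, 2.02 and 3.1 CPM against 0.343, 0.481 and 0.89 CPM (log2 2.11 ± 0.37).

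Wnt signalling genes were lower in preadipocytes more often than higher, 14 (37.8%) against 3 (8.11%) of 37 tested, beside 19.9% and 18.7% of all genes. Lgr5, a receptor for R-spondins and a marker of stem cells in epithelia, was at 5.45, 10.7 and 8.47 CPM in preadipocytes and 245, 298 and 229.8 CPM in MEFs, 31.4-fold lower (log2 -4.97 ± 0.25, adjusted p = 1.64e-05). The secreted antagonists went both ways, with Sfrp1 at 1516, 2621 and 3189.5 CPM in preadipocytes and 726, 679 and 721 CPM in MEFs (log2 1.78 ± 0.26, adjusted p = 0.00121) and Sfrp2 at 12.9, 9.32 and 26.2 CPM against 230.2, 218 and 229.6 CPM (log2 -3.81 ± 0.39, adjusted p = 0.000457). Wnt10b, a ligand that blocks adipogenesis, was at 0.636, 0.24 and 0.103 CPM against 3.57, 4.04 and 3.44 CPM. The 3 genes higher in preadipocytes were Sfrp1, the receptor gene Ryk (log2 0.86 ± 0.06) and Dkk3 (log2 0.70 ± 0.12), the last of which dropped to log2 0.40, and was not called, when WT and DKO libraries were fitted together.

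In the BMP and TGF-β family, several BMP ligands were lower in preadipocytes and the antagonist Grem1 was higher. Of 45 genes tested, 16 were higher (35.6%) and 11 lower (24.4%), beside 18.7% and 19.9% of all genes. Bmp4, a ligand that commits mesenchymal cells to the fat lineage, was at 0.273, 1.1 and 1.86 CPM in preadipocytes and 47.5, 27.4 and 50.3 CPM in MEFs (adjusted p = 0.000357), and Bmp3 at 0.318, 0.24 and 0.155 CPM against 27.2, 21 and 25.6 CPM (log2 -6.64 ± 0.22). Grem1, a secreted antagonist of BMP2 and BMP4, was at 616, 905 and 479 CPM against 26.2, 22.2 and 28.1 CPM, 26.1-fold higher (log2 4.71 ± 0.28, adjusted p = 2.79e-05), whereas the antagonist Chrdl1 was lower, at 0.682, 0.624 and 1.19 CPM against 87, 78 and 86.8 CPM (log2 -6.66 ± 0.17). Inhbb, the activin B subunit, was at 109.96, 98.8 and 99.97 CPM against 12, 10.2 and 11.9 CPM (log2 3.18 ± 0.09). The receptor gene Tgfbr2 was lower, at 232, 259.6 and 288 CPM against 497, 544 and 517 CPM (adjusted p = 5.01e-05). Among the targets of BMP signals, Id2 was lower by log2 -1.85 ± 0.15.

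Antigen presentation genes that were called were mostly lower in preadipocytes, with 1 large exception. Of 20 genes of MHC class I and its peptide supply, 12 were lower and 2 higher, the latter 1 without preadipocyte replicate 3 or MEF replicate 1 or 2, the median log2 fold change being -1.02. H2-D1, a classical class I gene, was at 118, 155 and 124 CPM in preadipocytes and 460.2, 528 and 484 CPM in MEFs (log2 -1.89 ± 0.11, adjusted p = 6.67e-06). Nlrc5, the transactivator of class I genes, was at 1.86, 3.65 and 3.36 CPM against 19.3, 18.5 and 18.8 CPM (log2 -2.68 ± 0.22), and the immunoproteasome subunit gene Psmb9 was lower by log2 -2.60 ± 0.25. B2m, the light chain, did not reach the fold threshold (log2 -0.51 ± 0.08). The exception was H2-T10, a polymorphic pseudogene of the T region (chromosome 17, 36115876 to 36121465), at 52.5, 52.6 and 44 CPM in preadipocytes and 2.64, 3.15 and 3.23 CPM in MEFs (log2 4.05 ± 0.12, adjusted p = 6.13e-07), while its neighbours H2-T22 (chromosome 17, 36037128 to 36042747; log2 -2.49 ± 0.09) and H2-T23 (chromosome 17, 36029773 to 36032855; log2 -2.76 ± 0.14) were lower. With WT and DKO libraries fitted together, H2-T22 and H2-T23 came to log2 -0.84 and -1.21 and were not called. Class I genes are similar in sequence, so reads may be split between them. This was not tested, and the 3 values are uncertain. Interferon-stimulated genes were mostly not called, 25 of 34, with 7 lower and 2 higher. The 2 came to 0 without preadipocyte replicate 3 or MEF replicate 2 and to 1 without preadipocyte replicate 2 or MEF replicate 1 or 3. Oas2 was at 2.95, 7.45 and 5.89 CPM against 37.4, 29 and 35.3 CPM (log2 -2.65 ± 0.31, adjusted p = 0.000448). Macrophages express many of these genes, and the part of their RNA was not tested.

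Most proliferation genes were not called between the WT sources, but the counts depended on the libraries used. Of 35 cell cycle genes, 6 were higher and 4 lower, counts that ran from 4 to 10 and from 0 to 5 over the alternatives and came to 10 and 1 without preadipocyte replicate 2. Rrm2, a subunit of ribonucleotide reductase, was at 80.4, 71 and 77.6 CPM in preadipocytes and 34.2, 32 and 33.9 CPM in MEFs (log2 1.19 ± 0.07, adjusted p = 5.69e-06), and the mitotic genes Aurka and Kif20a were higher by log2 0.85 ± 0.14 and 0.92 ± 0.20. The replication licensing gene Mcm3 was lower by log2 -0.82 ± 0.10, and was not called when WT and DKO libraries were fitted together (log2 -0.45). Among inhibitors of cyclin-dependent kinases and senescence genes, 6 of 18 were higher and 3 lower. Cdkn2a, encoding p16 and p19Arf, was at 82.2, 85.9 and 41.7 CPM against 18.7, 17 and 20.1 CPM (log2 1.91 ± 0.29, adjusted p = 0.00189), and its neighbour Cdkn2b was higher by log2 0.90 ± 0.20, the direction opposite to that of Cdkn1c.

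Among the chromatin genes, no member of the HMGN family, 2 of which the series deletes, was called between the WT sources. Hmgn1 was at 173, 144 and 182 CPM in preadipocytes and 138, 142 and 137 CPM in MEFs (log2 0.26 ± 0.09, adjusted p = 0.0354), and Hmgn2 at 49.1, 35.7 and 56.6 CPM against 58.5, 70.1 and 57.1 CPM (log2 -0.39 ± 0.17, adjusted p = 0.0849). Hmgn3 (log2 -0.08 ± 0.12) and Hmgn5 (log2 0.17 ± 0.17) overlapped between the sources. Hmgn3 was called lower with the WT and DKO libraries of day 0 fitted together (log2 -0.75, adjusted p = 0.0486) and in the DKO comparison (log2 -1.39, adjusted p = 0.0437). Of 25 genes of DNA methylation and Polycomb, 9 were lower and 1 higher. Dnmt3a, a de novo DNA methyltransferase, was at 32, 29.9 and 38 CPM in preadipocytes and 151, 170.3 and 151 CPM in MEFs, 4.72-fold lower (log2 -2.24 ± 0.10, adjusted p = 1.86e-06). Tet1, which oxidises 5-methylcytosine, was lower by log2 -1.55 ± 0.14, as were Dnmt3b (log2 -1.31 ± 0.21) and the Polycomb gene Cbx7 (log2 -1.98 ± 0.29). The 1 gene higher was Dnmt3l, the cofactor of germ cell methylation, at 4.36, 3.36 and 1.76 CPM against 0, 0.148 and 0.0404 CPM. Of the 13 protein genes of the mitochondrial genome, 6 were higher and none lower, and the 6 came to 3 without preadipocyte replicate 3, without MEF replicate 2, with library size scaling or with the DKO libraries in the fit. Of 18 RNAs without a poly(A) tail, 5 were abundant enough to test.

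The DKO cells of day 0, which lack Hmgn1 and Hmgn2 and have 3 libraries per source, share no library with the WT comparison but carry the same link between source, sex and table. Of 15893 genes tested there, 2207 were higher in preadipocytes (13.9%) and 2390 lower (15%). Among 15406 genes tested in both genotypes, 1837 were higher in both, which is 63.9% of the WT and 86.2% of the DKO calls, and 1945 were lower in both, 65.3% and 83.7%. In 2 genes, H2-T22 and the pseudogene Tes3-ps, the calls were opposite, lower in WT and higher in DKO preadipocytes (DKO adjusted p = 0.0165 and 0.038). In DKO cells 16 of 23 contractile genes were higher and none lower, 17 of 18 macrophage genes were lower, 16 of 36 imprinted genes were lower and 1 higher, and 11 of 13 epithelial and mesothelial genes were lower. Several other lists had fewer calls than in WT cells. Of the basement membrane and other collagens, 4 of 21 were lower and none higher, beside 12 and 5 of 23 in WT cells. Fibrillar and fibril-associated collagens came to 4 lower and 1 higher of 17, beside 11 and 2, and Wnt genes to 7 and 1 of 37, beside 14 and 3. Progenitor markers came to 7 higher and 4 lower of 29, beside 13 and 9 of 30. Cell cycle genes came to 7 higher and none lower of 35, beside 6 and 4 of 35. Their median log2 fold change was 0.73 in DKO and 0.099 in WT cells. Single genes gave DKO log2 fold changes of -6.86 for H19 and -9.10 for Igf2, -5.62 for Eln, 5.89 for Cnn1, 3.88 for Timp1, 5.49 for Ptgs2, -2.63 for Hoxd8 and 2.30 for Hoxc10. The WT values given above have the same sign in all 8. Processed pseudogenes were higher in preadipocytes in the DKO cells too, 626 of 925 and none lower.

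A direct test of whether the difference between the sources depended on genotype called 14 of 16581 genes (0.0844%), with 1233 at an unadjusted p under 0.05. On simulated data this test recovered 123 of 200 genes given a 4-fold dependence (61.5%), so the other genes are not shown to be free of one. Of the 14, 3 were H2-T22, H2-T10 and H2-T23. H2-T10 was at 1.22, 2.13 and 1.81 CPM in DKO preadipocytes and 1.8, 3 and 2.13 CPM in DKO MEFs, so that of the 4 groups the WT preadipocytes alone were high. H2-T22 was at 83.7, 99.3 and 115 CPM in DKO preadipocytes and 57.8, 70.7 and 53.3 CPM in DKO MEFs, and the WT preadipocytes alone were low. Apoe was at 162, 396 and 217 CPM in DKO preadipocytes and 795, 1187 and 1226 CPM in DKO MEFs, a smaller gap than in WT cells (log2 difference of the differences 3.57 ± 0.44, adjusted p = 0.0136). The vascular growth factor gene Vegfc had a larger gap in DKO cells, at 7.33, 8.45 and 8.44 CPM and 30.2, 41.7 and 40.4 CPM (-1.49 ± 0.18, adjusted p = 0.0118).

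The WT libraries of later days show which differences at day 0 were still there once the cells had been differentiated, at days 3, 6 and 9 for preadipocytes and 4, 8 and 12 for MEFs. Levels here are means ± SD of 3 libraries, scaled together over the 24 WT libraries, and as the days differ no test was made. By the study's methods, preadipocytes had the cocktail for 4 days and MEFs for 8 days, so exposure to it differed as well. Adipoq reached 1420.1 ± 37.5 CPM in preadipocyte cultures at day 9 and 724 ± 8.29 CPM in MEF cultures at day 12. Part of the Hox differences stayed. All 6 tested Hoxd genes were still lower, and Hoxc10, Hoxc11 and Hoxc13 still higher, in preadipocyte cultures on the last days. Hoxc10 was at 22.7 ± 2.1 CPM against 10.9 ± 0.852 CPM on those days, and Hoxd8 at 8.15 ± 0.284 CPM against 24.1 ± 0.5 CPM. Hoxb9 turned, from 63.1 ± 1.61 CPM against 35.2 ± 2.31 CPM at day 0 to 4.16 ± 0.93 CPM against 19.5 ± 0.995 CPM, as did the means of Hoxa11 and Hoxc9, and Hoxb7 came to 6.18 ± 0.372 CPM against 5.83 ± 0.203 CPM. Igf2 was at 4.42 ± 1.46 CPM against 2592 ± 15.7 CPM, H19 at 40.3 ± 0.784 CPM against 4846 ± 32.9 CPM and Timp1 at 296 ± 21.5 CPM against 38.9 ± 1.4 CPM, each on the side it had at day 0. Of the contractile genes, Cnn1 went from 447 ± 53.8 CPM at day 0 to 2.27 ± 1.51 CPM at day 9 in preadipocyte cultures and was at 9.96 ± 0.558 CPM in MEFs at day 12, and Acta2 was at 65.1 ± 60.4 CPM against 159 ± 3.14 CPM, so that in both genes the means turned. Cxcl14 came down to 5.79 ± 1.1 CPM and Ptgs2 to 3.39 ± 3.06 CPM in preadipocyte cultures at day 9, beside 6.81 ± 0.484 CPM and 6.11 ± 0.498 CPM in MEFs at day 12. Csf1 was still higher, at 347 ± 38.2 CPM against 185 ± 3.21 CPM. Eln in MEFs dipped to 48.1 ± 41.9 CPM at day 4 and came back to 1006 ± 22.2 CPM at day 12. Macrophage genes rose in value in preadipocyte cultures. Lyz2 in preadipocyte cultures was at 102 ± 82.6 CPM at day 3 and 6616 ± 1772 CPM at day 6, and Csf1r went from 6.7 ± 4.1 CPM to 365 ± 104 CPM, against 257 ± 5.49 CPM in MEFs at day 12. By day 6 both genes were in the range of the MEF cultures.

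**Figure D5:**
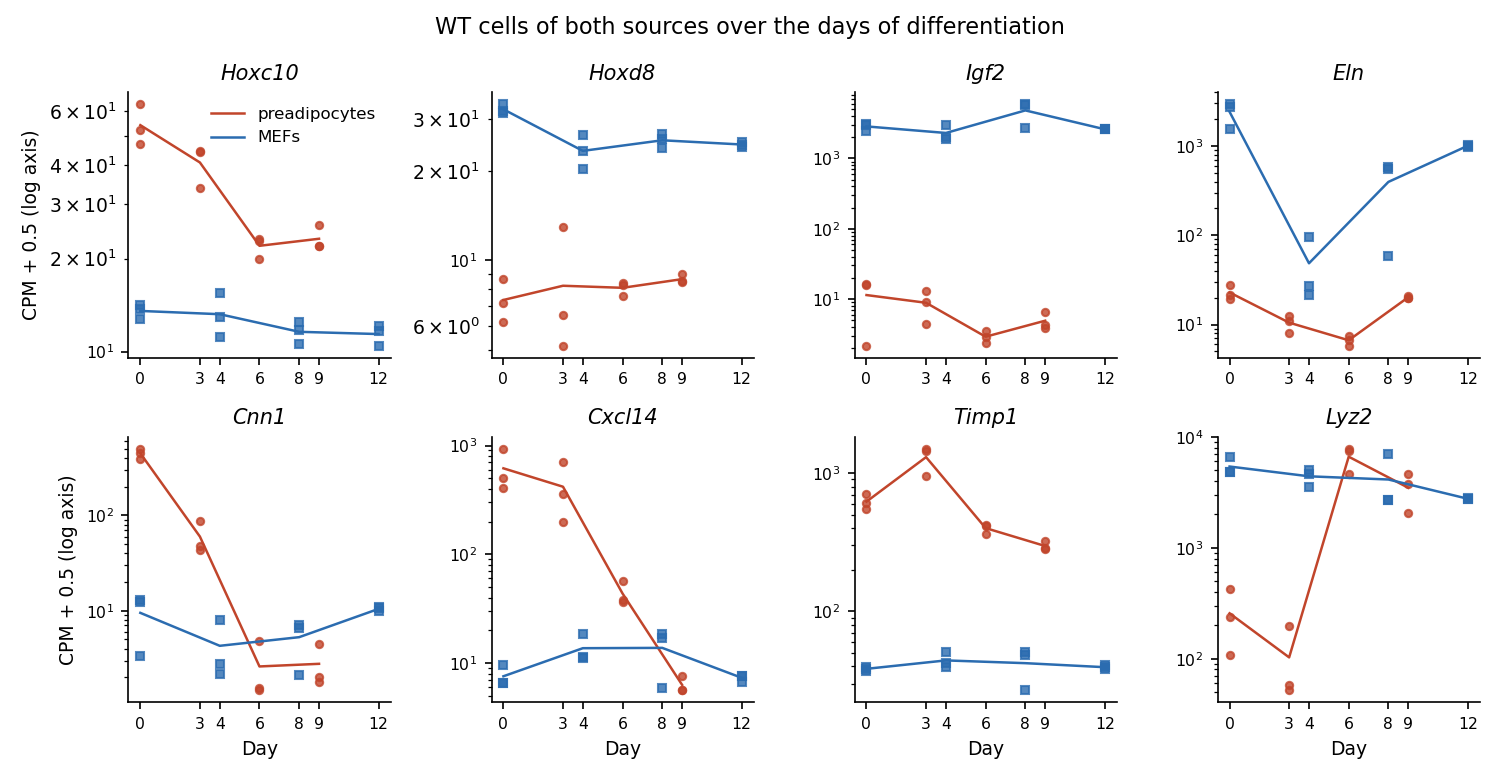
Each point is 1 WT library (red circles, preadipocytes; blue squares, MEFs) and each line joins the means of 3, by day of differentiation on the x axis and CPM plus 0.5 on a log y axis with its own range in each panel. Hoxc10, Hoxd8, Igf2 and Timp1 keep the 2 sources apart on each day, whereas in preadipocytes Cnn1 drops below the MEFs of day 12 and Cxcl14 to about their level by day 9, and Lyz2 climbs to it by day 6; in MEFs, replicate 1 of day 4 and replicate 2 of day 8 lie away from the others in Eln.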

How the data were processed

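RNA-seq libraries of WT preadipocytes and WT MEFs at day 0 were compared, with the DKO libraries of day 0 and the WT libraries of later days beside them. Per the submitters' processing notes, reads were demultiplexed with bcl2fastq 2.17, trimmed with cutadapt 1.18, aligned to mm10 with STAR 2.7.0f and counted per gene with RSEM 1.3.0. The authors deposited the resulting expected counts (estimated, not normalized), in 1 table per cell source. The labels name poly(A) RNA as the molecule and the study's methods a stranded total RNA kit.

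The 2 tables, with the same 55450 gene identifiers, were joined by identifier, and the expected counts were rounded to whole numbers. All identifiers matched GENCODE M21. Genes were filtered by filterByExpr in edgeR 4.0.16 (R 4.3.3), scaled by TMM and tested by robust quasi-likelihood fits, called at an adjusted p under 0.05 (Benjamini-Hochberg) and at least 1.5-fold. In a group with at most 3 counts in each library, the fold is a bound against that floor. DESeq2 1.42.0, limma-voom (limma 3.58.1) and other filters, scalings and sample sets were alternatives. On simulated data of this comparison, 200 of 15726 genes were changed by 4-fold and the rest not at all. Of the 200, 187 were recovered, with 5.56% of calls false. The real comparison called 38.6% of genes at 1.5-fold or more, so these rates do not carry over to its calls. Depth was 19872420 to 28174944 counts per library. The SE of a log2 fold change comes from the quasi-likelihood fit, which takes in the spread between the libraries.

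The libraries, the 35 gene lists and the genes named were chosen with earlier results of these data known. Named genes were the tested Hox and HMGN genes, the called members of each list with the largest change and its 2 members with the most reads, and the genes with the largest change, most reads or smallest p overall or called for a genotype dependence. Some of them are not reported here. Named outside this rule, after their values were seen, were Adipoq, Cebpa, Cebpb, Cebpd, Cldn3, Cnn2, Csf1r, Cxcl14, Itga8, Mmp1a, Mmp12, Mmp13, Myl9, Myod1, Myog, Pax7, Pck1, Pdgfra, Pparg, Smtn, Tes3-ps, Ucp1, Vcl and Vegfc.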

Additional observations from a re-analysis of the deposited data

Results flagged for a closer look

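The difference between preadipocytes and MEFs depended on genotype in 14 genes at day 0, by edgeR's test of the interaction of source and genotype over 12 libraries with Benjamini-Hochberg adjustment. Values are the log2 fold change of preadipocytes over MEFs in DKO cells minus that in WT cells.

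The 3 class I genes of the T region on chromosome 17 led the test, H2-T22 at 3.21 ± 0.19 (SE), H2-T10 at -4.47 ± 0.32 and H2-T23 at 3.00 ± 0.23, with adjusted p of 8.65e-05, 0.000229 and 0.000319. Class I genes are similar in sequence, and whether reads were split between them was not tested. In WT preadipocytes H2-T23 was at 8.46, 11 and 7.18 CPM, and in DKO preadipocytes at 71.1, 52.6 and 51.9 CPM.

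Of the pseudogenes, Gm9625 came to 1.07 ± 0.09, Gm8730 to 1.35 ± 0.14 and Gm1821 to -2.24 ± 0.21. Gm8730 was at 531, 489 and 464 CPM in WT preadipocytes and 363, 369 and 384 CPM in WT MEFs, but at 30.6, 27.2 and 24.2 CPM and 8.77, 7.89 and 7.75 CPM in the DKO cells. Gm9625 was at 78.8, 81.3 and 83.9 CPM in WT MEFs and 6.12, 6.16 and 6.28 CPM in DKO MEFs. Both are processed copies of another gene, and reads of that gene could be counted in them.

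On chromosome 3, the antisense gene Gm43079 came to -6.22 ± 0.66 and D3Ertd751e to -1.85 ± 0.20. Gm43079 had at most 1 count per library in WT MEFs and was at 1.27, 1.27 and 1.05 CPM in DKO MEFs, and its fitted value depends on that floor.

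Among secreted factors and receptors, Apoe came to 3.57 ± 0.44, the lymphatic growth factor gene Vegfc to -1.49 ± 0.18, the VEGF receptor gene Flt1 to -2.55 ± 0.37 and Plau, the urokinase gene, to 0.99 ± 0.15. The secreted kinase gene Pkdcc came to 1.30 ± 0.17 and the proteasome subunit gene Psmd8 to -0.68 ± 0.10, with adjusted p of 0.019 and 0.0362. Flt1 was at 22.9, 33 and 36.1 CPM in WT and 5.93, 7.15 and 7.85 CPM in DKO preadipocytes, beside 146, 130.3 and 152 CPM and 116, 216 and 243 CPM in MEFs.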

How the results depend on the processing

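The 6078 calls numbered 5821 to 6251 when any 1 library was left out, 2814 to 3029 of them higher and 3006 to 3222 lower. Without a fold threshold the calls rose to 9656, 4701 higher and 4955 lower. With the fold threshold at log2 1, 2065 genes were lower, and at 2 or more 2019 were called, 866 higher and 1153 lower. Protein-coding genes alone, a setting chosen after seeing the data, gave 1959 higher. In the other settings, among them DESeq2, limma-voom and scaling by library size, each count stayed within 1.5 times the main one. Scaling by library size moved the median log2 fold change of all genes from -0.02 to -0.13 and the share of calls that were higher from 48.5% to 40.8%. The replicate numbers did not pair the sources, as deviations of same-numbered libraries correlated at -0.083 to -0.034, and with the number as a block 5851 genes were called, 2806 higher and 3045 lower, without Hoxc9 (adjusted p = 0.0609). The DKO comparison gave 3183 to 4635 calls without 1 library, 1588 to 2230 higher and 1595 to 2442 lower, also added after seeing the data.

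The 14 genes that depended on genotype numbered 52 by DESeq2, and 8 to 169 without 1 library: 169 without DKO MEF replicate 1, and 8 without WT MEF replicate 2 or 3.

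Of the genes named, Pparg, Col3a1, Col1a2, Des, Hmgn3 and Pdgfra, none of them called in the main comparison, changed sign under at least 1 setting, while Col1a2 was called lower with limma-voom (-0.65) and Hmgn3 with all 12 day 0 libraries (-0.75). Pparg came to 0.13 with limma-voom, 0.18 with all 12 day 0 libraries, 0.0028 with all 48 libraries and -0.30 to 0.063 without 1 library. Col3a1 came to 0.60 and 0.039 with 12 and 48 libraries and -0.12 to 0.023 without 1 library, Col1a2 to 0.27 and Des to 0.067 with 12 libraries, Des to -1.09 to 0.18 and Pdgfra to -0.39 to 0.051 without 1 library, and Hmgn3 to 0.073 with limma-voom, 0.0058 with 48 libraries and -0.19 to 0.0044 without 1 library.

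With 3 libraries a source, an exact permutation test of a single value cannot go below p = 0.1. Cell source, donor age, sex, plating and table cannot be told apart, and the DKO libraries carry the same link. Single counts decide values at or under the floor of 3 counts, 0.155 CPM in preadipocytes and 0.121 CPM in MEFs.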
